A study of Homo sapiens with 6 samples.

Results

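The transcripts described here are those of 46 human genes that fold proteins in the endoplasmic reticulum (ER) or belong to the unfolded protein response. They were taken by gene symbol from a table of 58735 genes. They comprise 9 ER chaperones and cofactors, 6 disulfide isomerases and oxidases, 8 genes of ER-associated degradation, 4 stress sensors, 8 genes of the ATF4 branch and 11 genes of the translocon and signal peptidase. The cells were Raji, a human B-cell line from a Burkitt lymphoma, carrying a GFP and firefly luciferase reporter (GFP-ffluc) in both groups. For 3 libraries the cells spent the night at 37 °C in medium with 1 nM bryostatin-1, a marine macrolide known to act on protein kinase C. For the other 3 the medium held DMSO, the solvent. Polyadenylated RNA was sequenced from the bulk culture, so fewer cells of a kind and less RNA per cell cannot be told apart. The labels do not say whether libraries came from separate cultures, so the tests reflect the spread among these 6 libraries, which may be technical.

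Secreted and membrane proteins enter the ER through the SEC61 channel and are folded there by chaperones such as HSPA5 (BiP) and by disulfide isomerases. When unfolded proteins accumulate, IRE1 (the product of ERN1), PERK (EIF2AK3) and ATF6 start the unfolded protein response. ATF6 and the spliced product of XBP1 switch on chaperone and degradation genes, and PERK slows translation while favouring that of ATF4. B cells use this system heavily when they become antibody-secreting plasma cells.

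The libraries held 19405370 to 24468270 reads on genes, recovered from the deposited values. Levels are given as FPKM, which is per gene length and can therefore be compared between genes. The B-cell markers MS4A1, CD79A, CD79B and PAX5 averaged 42.2 to 486.0 FPKM with bryostatin and 45.7 to 444.0 FPKM with DMSO. Among 18 markers of other cell types the sum was 3.03 to 3.75 FPKM with bryostatin and 3.33 to 5.68 FPKM with DMSO. CD2, KLRD1, CD163, EPCAM, COL1A2 and HBB were at 0 in all libraries. NKG7, a marker of cytotoxic lymphocytes, made up most of the sum, at 1.82 to 4.54 FPKM (34 to 93 reads a library). COL1A1 (58 to 176 reads a library), PECAM1 (9 to 137) and CD3E (4 to 20) were also found in every library, below 1 FPKM. The library DMSO replicate 3 did not stand with its group for cell-cycle genes: their mean log2 level, relative to the 6 libraries, was 0.440, 0.181 and 0.207 with bryostatin and -0.627, -0.456 and 0.255 in DMSO replicates 1 to 3. Results that rest on either side of that split are given below with and without this library.

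All 46 members were in the table and 45 reached the mean of 1 FPKM required for testing, the exception being ASNS. Levels were compared as log2(FPKM + 1) in limma, and changes are bryostatin minus DMSO on that scale, where changes of genes with low levels come out too small. Means were higher with bryostatin for 27 of the 45 members, beside 53.9% of all tested genes. The largest change was 0.59, and none of the 45 members passed an adjusted p of 0.05 (smallest adjusted p = 0.216), beside 0% of all 11071 tested genes. Without DMSO replicate 3, 267 genes and 0 members passed. At an unadjusted p under 0.05, 4 members were higher with bryostatin (CALR, SDF2L1, MANF and SEC61G) and 0 were lower, beside 10.5% and 7.18% of all tested genes in limma. The share of members on the higher side, 4 of 45, is near that background. Scaling to TPM turned the split to 3 higher and 3 lower (background 7.70% and 9.94%) and quantile normalisation to 3 higher and 2 lower (8.07% and 9.19%). Without DMSO replicate 3 there were 5 higher (HYOU1 in addition) and 4 lower (ERN1, SSR2, TRIB3 and CHAC1), beside 15.6% and 10.2% of all genes tested then. Every bryostatin library lay above every DMSO library for 6 members (background 12.9%) and below for 3 (background 10.7%). The median change of the members was 0.031, and that of all tested genes was 0.018. The 95% interval of the change stayed within 1.5-fold either way for 39 of 45 members (86.7%), against 73.4% of all tested genes.

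**Figure D1:**
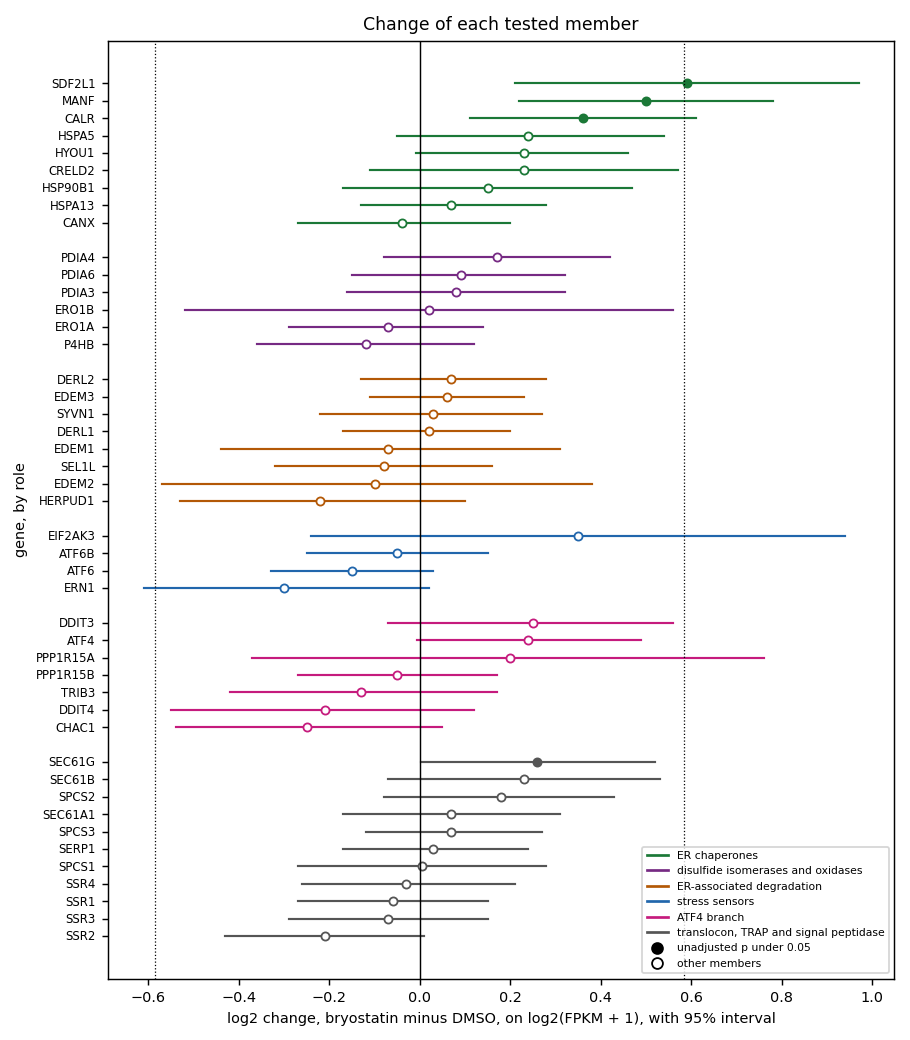
Log2 change of each of the 45 tested members (x axis, bryostatin minus DMSO on log2(FPKM + 1)) with its 95% interval, by role from top to bottom. Filled points mark an unadjusted p under 0.05, and dotted lines mark 1.5-fold either way. The filled points are SDF2L1, MANF and CALR among the chaperones and SEC61G in the translocon.

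The members spanned a wide range of levels. CALR and HSPA5 were the most abundant, with means over the 6 libraries of 272.2 and 227.0 FPKM, followed by CANX at 142.7, PDIA3 at 111.6 and ATF4 at 103.8 FPKM. At the other end stood ERN1 at 1.98 FPKM and ASNS at 0.455 FPKM. Among the sensors ATF6B, the ATF6 paralog, had the highest level at 22.6 FPKM, then EIF2AK3 at 10.9 and ATF6 at 7.37 FPKM. In the SEC61 channel the levels ran from 66.9 FPKM for SEC61B over 41.9 for SEC61A1 to 29 FPKM for SEC61G.

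**Figure D2:**
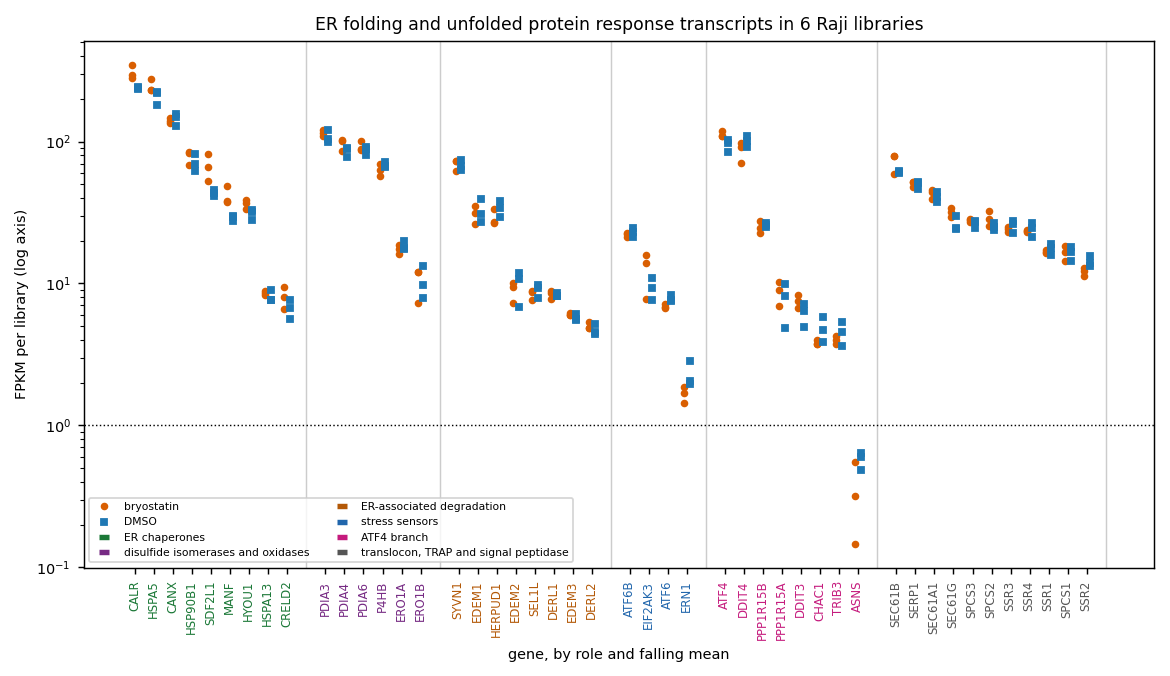
FPKM of the 46 members in each library (log axis), by role and falling mean, with bryostatin left of DMSO for each gene. The dotted line is the limit of 1 FPKM for testing. CALR is at the top, and ASNS lies below the limit in all 6 libraries.

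The ER chaperones were the group with the most members on the higher side. Of 9 chaperones and cofactors 8 had higher means with bryostatin (53.9% of all tested genes did), and for 5 every bryostatin library was above every DMSO library (12.9% of all tested genes). An unadjusted p under 0.05 on the higher side was reached by 3 (10.5% of all tested genes), and 0 passed after adjustment. Their median change was 0.228, against 0.018 over all tested genes. CALR encodes calreticulin, a calcium-binding lectin that holds newly made glycoproteins. It had 348.4, 292.4 and 279.5 FPKM in bryostatin replicates 1 to 3, against 233.1, 237.2 and 242.5 FPKM in DMSO replicates 1 to 3. All bryostatin libraries lay above all DMSO libraries, and the DMSO libraries were close together. The means were 306.7 ± 36.6 FPKM with bryostatin and 237.6 ± 4.75 FPKM with DMSO (SD, n = 3 each). The change was 0.36 with an SE of 0.107 (1.28-fold, adjusted p = 0.217 in limma). CALR is gene ENSG00000179218, on chromosome 19 from 12938578 to 12944489 (hg38).

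SDF2L1, a stromal cell-derived factor 2-like protein that sits in ER chaperone complexes, had the largest change of any member. It had 82.2, 66.1 and 52.4 FPKM with bryostatin, against 45.3, 41.3 and 43.7 FPKM with DMSO. The lowest bryostatin library was above the highest DMSO library, and the bryostatin libraries were spread out, with replicate 1 highest. The means were 66.9 ± 14.9 and 43.4 ± 2.01 FPKM (bryostatin and DMSO, SD, n = 3 each), a change of 0.59 with an SE of 0.159 (1.5-fold, adjusted p = 0.217 in limma). SDF2L1 is gene ENSG00000128228, on chromosome 22 from 21642261 to 21644298. MANF, a small ER-resident and secreted partner of HSPA5, had 48.8, 38.4 and 37.3 FPKM with bryostatin, against 29.2, 30.1 and 27.4 FPKM with DMSO. Again the groups did not overlap, and the DMSO libraries differed little. Its means were 41.5 ± 6.33 FPKM with bryostatin and 28.9 ± 1.37 FPKM with DMSO (SD, n = 3 each), a change of 0.50 with an SE of 0.119 (1.41-fold, adjusted p = 0.216 in limma). MANF is gene ENSG00000145050, on chromosome 3 from 51385047 to 51389397.

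CALR, SDF2L1 and MANF kept an unadjusted p under 0.05 in each of 20 alternative settings, those that left out a library included. These genes were picked by their p in the same libraries, which the settings use again, so this is no separate result. The share of all tested genes that did so was not counted. Across the settings the changes ran from 0.27 to 0.42 for CALR, 0.43 to 0.75 for SDF2L1 and 0.38 to 0.57 for MANF. No adjusted p of these genes fell below 0.102 (range up to 0.586 in limma). Without DMSO replicate 3 the changes were 0.38, 0.59 and 0.46. Without bryostatin replicate 1, the highest library for all 3 genes, they were 0.27, 0.43 and 0.38. In DMSO replicate 3 these genes stayed at the level of the other DMSO libraries, unlike the cell-cycle genes.

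**Figure D3:**
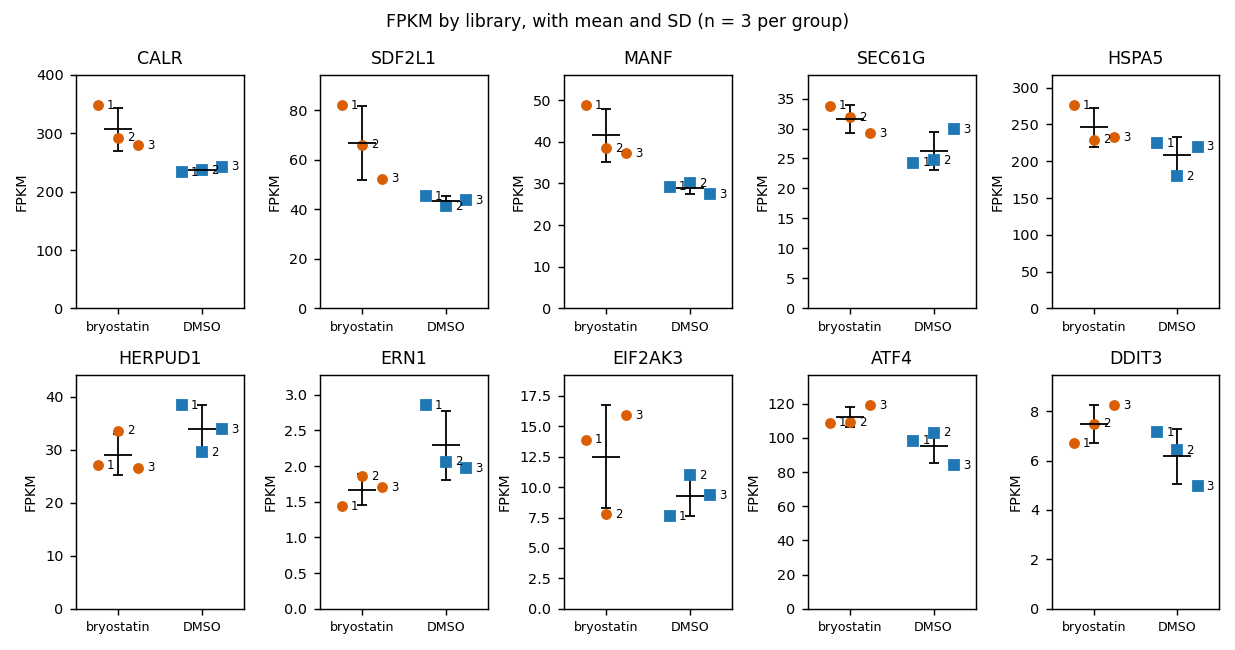
FPKM of 10 members by library, bryostatin left and DMSO right in each panel, with the replicate number beside each point and bars for mean and SD (n = 3 per group). CALR, SDF2L1 and MANF show 3 closely spaced DMSO points below all bryostatin points, whereas SEC61G and EIF2AK3 overlap.

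HSPA5, the Hsp70 chaperone of the ER that also binds the stress sensors, is the usual index of the unfolded protein response. It had 276.3, 229.3 and 232.7 FPKM with bryostatin, against 224.1, 179.8 and 219.7 FPKM with DMSO. The groups did not overlap, but the gap between bryostatin replicate 2 and DMSO replicate 1 was small beside the spread within each group. The change was 0.24 with a 95% interval from -0.05 to 0.54 (adjusted p = 0.343 in limma). It was 0.14 without DMSO replicate 2 and 0.16 without bryostatin replicate 1. HSPA5 is gene ENSG00000044574, on chromosome 9 from 125234853 to 125241330. HYOU1, its nucleotide exchange factor, had 38.6, 36.8 and 33.7 FPKM with bryostatin, against 32.0, 27.9 and 33.1 FPKM with DMSO, without overlap (change 0.23, or 0.15 at its smallest with a library left out, adjusted p = 0.295 in limma). HSP90B1, the Hsp90 of the ER, had 83.6, 68.9 and 84.1 FPKM with bryostatin, against 69.6, 61.7 and 82.1 FPKM with DMSO. DMSO replicates 1 and 3 lay within the bryostatin range (change 0.15, adjusted p = 0.568 in limma). The change was 0.26 without DMSO replicate 3 and 0.05 without DMSO replicate 2.

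CRELD2, a stress-inducible ER protein, had 9.45, 8.0 and 6.59 FPKM with bryostatin, against 5.66, 6.75 and 7.61 FPKM with DMSO, with overlap (change 0.23, and from 0.12 to 0.35 as single libraries were left out). It shares bases with ALG12 on the other strand, which averaged 3.13 FPKM. The strand setting is not known, so how reads from the shared bases were counted is unclear. CANX, the membrane-bound partner of calreticulin, was the one chaperone with a lower mean, at 145.7, 136.2 and 140.2 FPKM with bryostatin, against 149.0, 128.8 and 156.4 FPKM with DMSO. Its bryostatin libraries lay inside the DMSO range (change -0.04, 95% interval from -0.27 to 0.20), and its sign turned without DMSO replicate 3. HSPA13, a small Hsp70-like ATPase, had a change of 0.07.

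Some of these genes carry the ER stress response element, to which ATF6 binds together with NF-Y. RefSeq promoter windows of 300 bases on GRCh38.p14, from 250 before to 50 after each start, were found for 43 of the 46 members, not for PDIA3, DERL1 and SPCS1. The element (ERSE), written as CCAAT, then 9 bases of any kind, then CCACG, was searched on both strands and was present in 8 of these 43 genes (18.6%), against 25 of 27305 genes with a window (0.0916%). The shorter ERSE-II, written as ATTGG, then 1 base of any kind, then CCACG, was in 3 of 43 (6.98%), against 19 of 27305 (0.0696%). The members were listed as genes of ER folding and of this response. These shares therefore describe the choice of list and are not a result of the treatment. The matches of 6 members are shown with their flanks because these genes include 2 of the 4 members with an unadjusted p under 0.05 and the standard indicator genes of the response. Each runs 5′ to 3′ on the strand of the gene, with the matched element in capitals, which reads as the reverse complement in HSP90B1 site 2, CALR, HYOU1 and SDF2L1.
HSPA5 (ERSE, -66 to -48 from the start): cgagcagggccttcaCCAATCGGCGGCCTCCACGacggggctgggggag
HSP90B1 site 1 (ERSE, -194 to -176): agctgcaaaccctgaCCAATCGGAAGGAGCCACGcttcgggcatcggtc
HSP90B1 site 2 (ERSE, -89 to -71): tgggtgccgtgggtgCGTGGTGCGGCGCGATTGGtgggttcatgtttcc
CALR (ERSE, -225 to -207): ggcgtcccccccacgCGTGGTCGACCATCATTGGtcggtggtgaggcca
HYOU1 site 1 (ERSE-II, -185 to -175): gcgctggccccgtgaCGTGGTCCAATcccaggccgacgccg
HYOU1 site 2 (ERSE-II, -79 to -69): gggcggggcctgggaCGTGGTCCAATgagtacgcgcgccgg
SDF2L1 (ERSE-II, -188 to -178): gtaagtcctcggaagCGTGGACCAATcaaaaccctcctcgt
HERPUD1 (ERSE-II, -117 to -107): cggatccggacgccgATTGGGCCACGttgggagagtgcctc
The capitals lie at chr9:125241391-125241409 in HSPA5, chr12:103930216-103930234 and chr12:103930321-103930339 in HSP90B1, chr19:12938384-12938402 in CALR, chr11:119057380-119057390 and chr11:119057274-119057284 in HYOU1, chr22:21642114-21642124 in SDF2L1 and chr16:56932025-56932035 in HERPUD1. HSPA5 and HYOU1 are on the minus strand and the others on the plus strand.

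CANX, CRELD2, PDIA6, ERO1B and SERP1 also held ERSE letters, and of the wider ER genes XBP1 did. Site 1 of HYOU1 shares bases with a match to TGACGTGG, the unfolded protein response element, which was in 3 of 43 members (HYOU1, SSR3 and SSR4, 6.98%) and 0.927% of all genes. The letters TGATGNAA, the element bound by ATF4 with C/EBP factors, were in 4 of 43 (PPP1R15B, ASNS, CHAC1 and HERPUD1, 9.3%) and 4.46% of all genes. No match to ERSE or ERSE-II was found in the windows of MANF and SEC61G. The 11 members with either element had a median change of 0.151, with 2 higher at an unadjusted p under 0.05 (CALR and SDF2L1) and 4 higher without overlap, where 10.5% and 12.9% of all tested genes were. The other 34 tested members, 3 of them with no window, had a median of 0.010, with 2 higher at that level and 2 higher without overlap. Since 7 of the 11 are chaperones, element and role cannot be told apart here. The levels of the 11 summed to 1002.8 to 1176.9 FPKM with bryostatin and 852.9 to 968.7 FPKM with DMSO, of which HSPA5 and CALR made up more than any other gene.

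**Figure D4:**
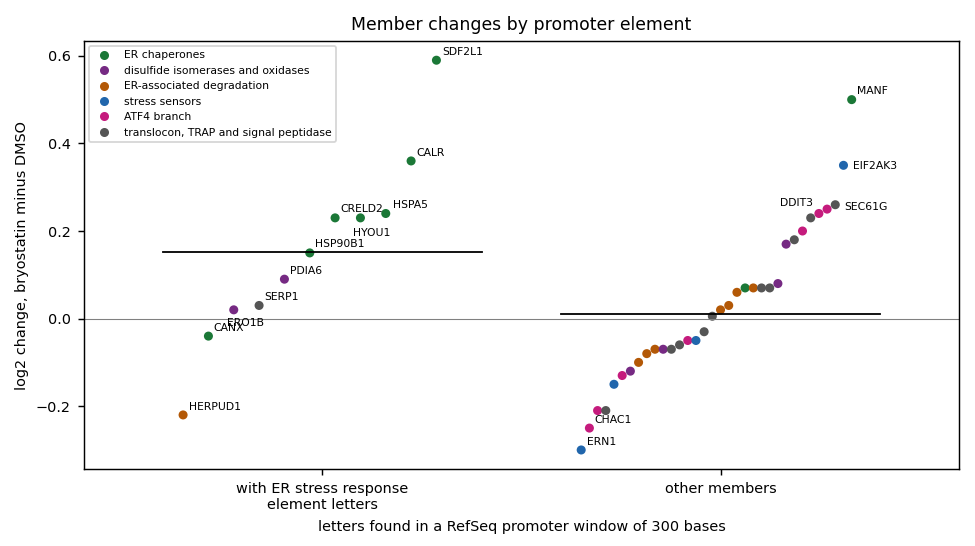
Log2 change (y axis, bryostatin minus DMSO on log2(FPKM + 1)) of the 11 members whose promoter window holds ERSE or ERSE-II letters (left) and of the other 34 tested members (right), coloured by role, with a line at each median (0.151 and 0.010). Within the left group the chaperones SDF2L1 and CALR are highest and HERPUD1 is lowest.

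The disulfide isomerases and oxidases, which form and rearrange disulfide bonds, overlapped between the groups in each of 6 cases. Of all tested genes 12.9% were higher and 10.7% lower without overlap. Of these 6 genes 0 had an unadjusted p under 0.05, where 10.5% of all tested genes were higher and 7.18% lower. PDIA4, an isomerase with several thioredoxin-like domains, had 102.0, 86.4 and 100.2 FPKM with bryostatin, against 89.5, 77.6 and 88.6 FPKM with DMSO. Bryostatin replicate 2 lay within the DMSO range (change 0.17, and from 0.11 to 0.25 as single libraries were left out, adjusted p = 0.415 in limma). PDIA3, which works with calreticulin and calnexin on glycoproteins, had a change of 0.08, and PDIA6 had 0.09. Both turned negative with quantile normalisation. P4HB, the classical protein disulfide isomerase, had means of 63.3 ± 6.51 FPKM with bryostatin and 68.6 ± 3.10 FPKM with DMSO (SD, n = 3 each; change -0.12). The oxidases that recharge these enzymes, ERO1A and ERO1B, had changes of -0.07 and 0.02. ERO1B was among the most variable members, at 12.0, 7.31 and 12.0 FPKM with bryostatin and 9.72, 13.2 and 7.89 FPKM with DMSO.

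The genes of ER-associated degradation, by which misfolded proteins are drawn out of the ER and destroyed, had changes between -0.22 and 0.07. Of these 8 genes 0 had an unadjusted p under 0.05, where 10.5% of all tested genes were higher and 7.18% lower. HERPUD1, a stress-inducible membrane component of this pathway, had 27.1, 33.6 and 26.6 FPKM with bryostatin, against 38.4, 29.6 and 33.9 FPKM with DMSO. Its mean was the lower with bryostatin, and the groups overlapped (change -0.22, 95% interval from -0.53 to 0.10, and from -0.32 to -0.13 as single libraries were left out). Its promoter window holds ERSE-II letters, as that of SDF2L1 does, and a link of these letters to the changes was not tested. SEL1L, the adaptor of the ubiquitin ligase SYVN1, had 8.82, 8.71 and 7.70 FPKM with bryostatin, against 9.35, 7.88 and 9.74 FPKM with DMSO, also with overlap (change -0.08). SYVN1 itself had a change of 0.03, of either sign depending on scaling. It shares bases with FAU on the same strand, which averaged 268.1 FPKM, and with MRPL49 on the other strand. EDEM1, EDEM2 and EDEM3, which trim mannose from glycoproteins bound for degradation, had changes of -0.07, -0.10 and 0.06. DERL1 and DERL2, membrane proteins of the exit route, had 0.02 and 0.07, and that of DERL1 was -0.03 with TPM.

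The stress sensors split in direction. ERN1, the kinase and RNase IRE1, had 1.44, 1.86 and 1.70 FPKM with bryostatin, against 2.85, 2.06 and 1.97 FPKM with DMSO. Each bryostatin library lay below each DMSO library, and DMSO replicate 1 was well above the rest. The change was -0.30 with an SE of 0.133 (adjusted p = 0.302 in limma), from 297 to 763 reads a library. It was -0.18 at its smallest when a library was left out. ERN1 is gene ENSG00000178607, on chromosome 17 from 64039142 to 64130819. ATF6, a membrane-tethered transcription factor released by cleavage, had 6.82, 7.21 and 6.77 FPKM with bryostatin, against 8.29, 7.5 and 7.65 FPKM with DMSO. The groups did not overlap here either, with a change of -0.15 (1.11-fold, adjusted p = 0.333 in limma). With TPM, ERN1 and ATF6 had an unadjusted p of 0.0444 and 0.0409 and changes of -0.33 and -0.19.

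EIF2AK3, the kinase PERK, had 13.9, 7.79 and 15.9 FPKM with bryostatin, against 7.59, 11.0 and 9.32 FPKM with DMSO. Bryostatin replicate 2 was among the lowest of the 6 libraries and the other bryostatin libraries were the highest. The change of 0.35 had the largest SE of all members, 0.250 (adjusted p = 0.470 in limma), and ran from 0.17 to 0.64 as single libraries were left out. ATF6B had a change of -0.05. XBP1, whose mRNA is spliced by IRE1, is the target of the ERN1 branch. Its total level was 28.8, 29.9 and 27.2 FPKM with bryostatin and 31.1, 26.3 and 28.9 FPKM with DMSO, a change of -0.0042 (95% interval from -0.22 to 0.21). The deposited gene levels do not separate its spliced and unspliced forms.

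In the ATF4 branch, which adjusts translation, amino acid supply and cell death, 3 of 7 tested transcripts had higher means with bryostatin and 4 lower. At an unadjusted p under 0.05 in limma stood 0 of them, where 10.5% of all tested genes were higher and 7.18% lower. ATF4, the transcription factor at the head of the branch, had 108.9, 109.2 and 119.1 FPKM with bryostatin, against 98.3, 103.2 and 84.1 FPKM with DMSO. The groups did not overlap (change 0.24 with an SE of 0.105, adjusted p = 0.292 in limma), and the change was 0.15 without DMSO replicate 3, its lowest library. DDIT3, which encodes the death-promoting factor CHOP, had 6.70, 7.5 and 8.23 FPKM with bryostatin, against 7.14, 6.43 and 4.97 FPKM with DMSO, with overlap (change 0.25, or 0.12 without DMSO replicate 3). DDIT3 had from 130 to 232 reads a library. It shares bases with MARS, at 28.0 FPKM, and MBD6 on the other strand. With no known strand setting, it is unclear how reads from the shared bases were counted.

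The targets TRIB3 and CHAC1 were on the opposite side. TRIB3, a pseudokinase, had 3.99, 3.76 and 4.29 FPKM with bryostatin, against 4.58, 5.33 and 3.63 FPKM with DMSO (change -0.13). CHAC1, which degrades glutathione, had 3.77, 3.98 and 3.76 FPKM with bryostatin, against 4.73, 5.77 and 3.86 FPKM with DMSO (change -0.25, adjusted p = 0.341 in limma). For both, DMSO replicates 1 and 2 were above all bryostatin libraries. DMSO replicate 3 lay below the bryostatin libraries for TRIB3 and among them for CHAC1. Without that library the changes were -0.25 and -0.37, with an adjusted p of 0.181 and 0.0967 in limma. ASNS, asparagine synthetase, was barely expressed, at 0.319, 0.146 and 0.551 FPKM with bryostatin and 0.483, 0.635 and 0.594 FPKM with DMSO. With 13 to 62 reads a library it was not tested.

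DDIT4, an inhibitor of mTORC1 that also answers to other stresses, had means of 87.0 ± 14.7 FPKM with bryostatin and 100.2 ± 8.51 FPKM with DMSO (SD, n = 3 each; change -0.21, adjusted p = 0.445 in limma). The change was -0.07 without bryostatin replicate 2, its lowest library, and -0.31 without bryostatin replicate 1. PPP1R15A and PPP1R15B direct the phosphatase that ends translational arrest. PPP1R15B had a change of -0.05, and PPP1R15A, which varied from 4.89 to 9.98 FPKM within DMSO, had 0.20 with a 95% interval from -0.37 to 0.76.

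The translocon, the TRAP complex and the signal peptidase bring proteins into the ER and cut their signal peptides. Of these 11 genes SEC61G, the small gamma subunit of the channel, had an unadjusted p under 0.05, where 10.5% of all tested genes were higher and 7.18% lower. It had 33.8, 31.9 and 29.2 FPKM with bryostatin, against 24.3, 24.7 and 29.9 FPKM with DMSO. DMSO replicate 3 was inside the bryostatin range, while DMSO replicates 1 and 2 were below it. The means were 31.6 ± 2.31 FPKM with bryostatin and 26.3 ± 3.14 FPKM with DMSO (SD, n = 3 each), a change of 0.26 with an SE of 0.109 (adjusted p = 0.281 in limma). Without DMSO replicate 3 it was 0.35, with the smallest adjusted p of any member under any setting, 0.0829. SEC61G is gene ENSG00000132432, on chromosome 7 from 54752250 to 54759974.

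SEC61B, the beta subunit, had 78.9, 79.4 and 59.5 FPKM with bryostatin, against 61.9, 61.5 and 60.2 FPKM with DMSO. Bryostatin replicates 1 and 2 were above all DMSO libraries and replicate 3 below them (change 0.23, and from 0.16 to 0.37 as single libraries were left out, adjusted p = 0.365 in limma). SEC61A1, the channel-forming subunit, had a change of 0.07. SSR4, the delta subunit of TRAP, had 23.4, 23.9 and 23.1 FPKM with bryostatin, against 26.5, 24.6 and 21.1 FPKM with DMSO, with the bryostatin libraries inside the DMSO range (change -0.03). SSR2, the beta subunit, lay lower in each bryostatin library, at 12.2 ± 0.768 FPKM with bryostatin and 14.2 ± 1.29 FPKM with DMSO (SD, n = 3 each; change -0.21, adjusted p = 0.302 in limma). SSR1 and SSR3 had -0.06 and -0.07. SPCS1, SPCS2 and SPCS3, subunits of the signal peptidase complex, had 0.0054, 0.18 and 0.07. SERP1, which steadies membrane proteins at the translocon during stress, had 52.2, 51.9 and 47.8 FPKM with bryostatin, against 51.5, 46.2 and 51 FPKM with DMSO (change 0.03).

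The 4 members with an unadjusted p under 0.05 were all short, with gene lengths of 1099 to 2714 bases. Members shorter than 3000 bases had a median change of 0.241 (11 genes), and longer ones had 0.017 (34 tested genes). With a trend on gene length removed from each library, the changes were 0.28 for CALR, 0.50 for SDF2L1, 0.41 for MANF and 0.17 for SEC61G, of which the first 3 kept an unadjusted p under 0.05 and SEC61G had 0.186. The part of length in these changes was not tested further.

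Group means by library showed where the chaperones stood. Relative to the 6 libraries, the mean log2 level of the 9 chaperones was 0.276, 0.079 and 0.034 in bryostatin replicates 1 to 3 and -0.133, -0.214 and -0.042 in DMSO replicates 1 to 3. Bryostatin replicate 1 stood highest, and all DMSO libraries were below all bryostatin libraries. All tested genes were split the same way with smaller differences, at 0.028, 0.003 and 0.01 with bryostatin and -0.019, -0.004 and -0.019 with DMSO. Bryostatin replicate 1 was also the highest of the 6 libraries for 6 of 9 chaperones, for 14 of 45 members (31.1%) and for 26.3% of all tested genes. The mean of the ATF4 branch was 0.009, -0.105 and 0.107 with bryostatin and 0.061, 0.152 and -0.225 with DMSO, in an order that differed from that of the chaperones. The means of the degradation genes stayed between -0.052 and 0.045 in all libraries.

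**Figure D5:**
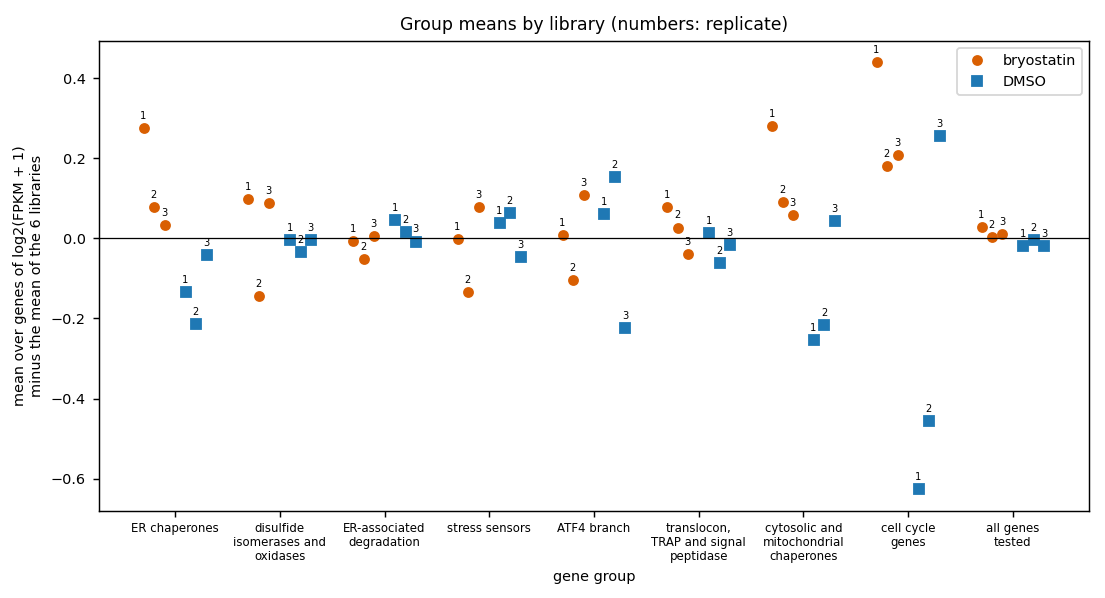
Mean over genes of log2(FPKM + 1), relative to the mean of the 6 libraries, for each role and for 2 comparison lists and all tested genes, with bryostatin libraries left of DMSO libraries and replicate numbers above the points. For chaperones all bryostatin points lie above all DMSO points, as they do with smaller differences for all tested genes. For cell-cycle genes DMSO replicate 3 lies among the bryostatin points.

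Chaperones outside the ER also had mostly higher means. Of 42 cytosolic and mitochondrial chaperone genes 41 were tested, and 38 had higher means with bryostatin (53.9% of all tested genes did). At an unadjusted p under 0.05 in limma 14 were higher and 0 lower (10.5% and 7.18% of all tested genes). Their median change was 0.276. Of the 9 ER chaperones 8 had higher means, 3 were higher and 0 lower at that level, and the median was 0.228. Over all ER members, most of which are not chaperones, 27 of 45 had higher means. At that level 4 were higher and 0 lower, and the median was 0.031. The cytosolic and mitochondrial list stood at 0.281, 0.090 and 0.059 with bryostatin and at -0.255, -0.217 and 0.042 in DMSO replicates 1 to 3. For both chaperone lists DMSO replicate 3 was the highest DMSO library and lay below the bryostatin libraries. In the cytosolic and mitochondrial list it lay close to bryostatin replicate 3 and far from the other DMSO libraries. In the ER list it stood at -0.042, between bryostatin replicate 3 (0.034) and DMSO replicate 1 (-0.133). Without this library the change of HSPA8 was 0.74 instead of 0.46, and that of PFDN6 0.78 instead of 0.92. The list medians without it were not computed. Differences between the lists were not tested.

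Of 133 further genes of the ER pathway 121 were tested, and 0 passed an adjusted p of 0.05. At an unadjusted p under 0.05, 13 were higher and 4 lower with bryostatin in limma (10.5% and 7.18% of all tested genes), and the median change was 0.023. Of the DNAJ co-chaperones of HSPA5, DNAJB11, DNAJB9 and DNAJC3 overlapped between the groups. DNAJC10, a co-chaperone with disulfide reductase activity, did not, and was singled out after its values were seen. It had 7.82, 8.22 and 8.68 FPKM with bryostatin, against 9.77, 10.3 and 9.39 FPKM with DMSO (change -0.23, adjusted p = 0.234 in limma), so that each bryostatin library lay below each DMSO library. DNAJC10 has a gene length of 21835 bases, and with the length trend removed its change was -0.08 (unadjusted p = 0.332 in limma). DNAJB11 had 13.5, 10.3 and 10.3 FPKM with bryostatin, against 10, 9.4 and 10.4 FPKM with DMSO (change 0.17). DNAJB9 had 5.09, 4.46 and 4.26 FPKM with bryostatin, against 4.42, 3.83 and 4.26 FPKM with DMSO (change 0.12). DNAJC3 had 12.1, 11.9 and 11.6 FPKM with bryostatin, against 12.5, 11 and 12.3 FPKM with DMSO (change -0.0029).

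The 8 genes of this list with the smallest p lay higher with bryostatin, each without overlap. They were picked by their p, so the lack of overlap is no separate result. Over the whole list 18 of 121 tested genes were higher and 6 lower without overlap, beside 12.9% and 10.7% of all tested genes. EMC6, a subunit of the membrane protein insertase EMC, had 4.87, 4.09 and 4.04 FPKM with bryostatin, against 2.85, 2.31 and 2.27 FPKM with DMSO (change 0.62, adjusted p = 0.216 in limma), on only 35 to 71 reads a library. Its fellow subunit EMC9 had 15.3, 14.9 and 12.5 FPKM with bryostatin, against 9.1, 10 and 9.93 FPKM with DMSO (change 0.51, adjusted p = 0.216 in limma). GET4, which helps deliver tail-anchored proteins, had 2.27, 1.9 and 1.83 FPKM with bryostatin, against 1.49, 1.14 and 1.12 FPKM with DMSO (change 0.42).

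Of these 8 genes RNF5 and UBE2J2 serve ubiquitination at the ER membrane. RNF5, a ligase, had 82.7, 71.6 and 70.3 FPKM with bryostatin, against 54.8, 59.4 and 59.2 FPKM with DMSO (change 0.36). UBE2J2, a conjugating enzyme, had 23.7, 21 and 19.7 FPKM with bryostatin, against 18.4, 15.5 and 17.4 FPKM with DMSO (change 0.31). The other three carry thioredoxin-like folds. ERP29 had 71.3, 67.1 and 63.4 FPKM with bryostatin, against 57.5, 54.6 and 47.8 FPKM with DMSO (change 0.33). TXNDC5 had 3.3, 2.39 and 2.26 FPKM with bryostatin, against 1.81, 1.64 and 1.84 FPKM with DMSO (change 0.39). TMX1 had 20.6, 20 and 18.6 FPKM with bryostatin, against 15.9, 16.7 and 17.1 FPKM with DMSO (change 0.24). By role, the genes higher at an unadjusted p under 0.05 in limma (10.5% of all tested genes) came from short lists, and differences between roles were not tested. They were 4 of 12 other disulfide isomerases, 4 of 29 signal recognition and translocation genes, 2 of 21 other degradation genes, 2 of 11 amino acid genes of the ATF4 branch and 1 of 14 glycosylation genes. On the lower side (7.18% of all tested genes) were 2 of 15 other sensors and factors, 1 of 19 other chaperones and 1 of the 21 degradation genes.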

How the data were processed

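Polyadenylated RNA of Raji cells was measured in 6 libraries, grouped by the treatment in their titles. The deposited values are FPKM per gene. Per the submitters' processing notes the build was hg38 and the tools were DESeq2 1.20.0, featureCounts 1.5.0-p3, HISAT2 2.0.5 and CASAVA, with no role named for each. Annotation, strand setting and filters: not given in the sources used here. All 58735 gene coordinates equal those of GENCODE 29. Multiplied by gene length, the deposited FPKM came in whole steps in each library (100% of values, tolerance 0.001), and counting those steps gave reads per gene. A gene at 0 could have had up to 3 reads, or 0.123 to 0.155 CPM at these depths, which covers counting error only.

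The comparison used log2(FPKM + 1) in limma 3.58.1 (R 4.3.3) with an intensity trend, for the 11071 genes whose mean reached 1 FPKM, with Benjamini-Hochberg adjustment over all of them. The fit was tested on simulated reads. No exact permutation test was used, since with 3 libraries a group its smallest two-sided p is 0.1. The members and gene lists were chosen with earlier results of these data known. Per-library values are given for 22 members chosen by name, for all members with an unadjusted p under 0.05, and, among other ER genes, for XBP1 and DNAJ genes and the 8 with the smallest p. Those of ERO1B are given outside these rules, for its spread. The gene MARCH6 stood under a date-like name and was restored by its identifier. Of the members 20 share bases with a gene on the other strand that had at least 0.1 FPKM. In 9 of these the other gene had at least 20% of the member's reads. They were CRELD2, SYVN1, DERL1, DERL2, DDIT3, SEC61A1, SSR4, SPCS1 and SERP1. On the same strand FAU, which overlaps SYVN1, had 130.6% of its reads. Alternatives covered pseudocount, filter, scaling, moderation, voom weights on the recovered reads (0 genes past the adjusted threshold), a length trend (loess, span 0.5), the replicate block, protein-coding genes and each library left out.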

Additional observations from a re-analysis of the deposited data

How the results depend on the processing

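Tested members had 189.5 to 18850 reads per library on average. Of 45 tested members 29 kept their sign in all of up to 20 alternative settings that tested them, and none passed an adjusted p of 0.05 in any. The other 16 had changes below 0.20 in size. With TPM the sign turned for ERO1B (-0.02), SYVN1 (-0.02), DERL1 (-0.03), SPCS1 (-0.04) and SERP1 (-0.02). With quantile normalisation it turned for PDIA3 (-0.03), PDIA6 (-0.02), ERO1B (-0.02), SYVN1 (-0.07), DERL1 (-0.0051), SEC61A1 (-0.04), SPCS1 (-0.06), SPCS3 (-0.01) and SERP1 (-0.09). With the length trend removed it turned for SSR1 (0.01) and SPCS1 (-0.01), and with voom weights for SPCS1 (-0.01). The cause was not tested. With 1 library left out, the ranges of members whose sign turned were -0.14 to 0.23 for ERO1B, -0.12 to 0.04 for SSR4, -0.03 to 0.10 for SYVN1, -0.18 to 0.08 for EDEM1, -0.32 to 0.05 for EDEM2, -0.02 to 0.07 for SERP1, -0.12 to 0.02 for CANX, -0.06 to 0.39 for PPP1R15A, -0.08 to 0.09 for SPCS1, -0.02 to 0.07 for DERL1 and -0.12 to 0.02 for PPP1R15B.

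The count of members lower at an unadjusted p under 0.05, 0 in the comparison itself, was 3 with TPM, 2 with quantile normalisation, 2 with voom weights, and 1 with the length trend removed, without a filter on low values and with protein-coding genes only. It was 0 to 4 with a library left out, and the highest count, 4, came without DMSO replicate 3. The median change of the members was -0.017 with TPM and -0.033 with quantile normalisation, against 0.031, and that of the wider ER list -0.021 with TPM, against 0.023. The median of all genes shifted to -0.023 with TPM and -0.007 with quantile normalisation. The wider list had 7 higher genes with quantile normalisation and 6 to 16 with a library left out, against 13, and 2 lower genes with a filter of 5 FPKM and 0 to 7 with a library left out, against 4. Over all genes 1 passed the adjusted threshold with a pseudocount of 0.1 FPKM, and 0 to 267 with a library left out, the 267 without DMSO replicate 3. Median-of-ratios scaling gave back the deposited scaling.

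No pairing by replicate number was seen: deviations from the group means correlated at -0.292, -0.322 and -0.106 for same-numbered libraries. For the other combinations they correlated at -0.0644 to 0.315. Deviations from means of 3 libraries depend on one another, so these values cannot settle whether libraries were prepared in pairs. With the replicate block 3 members were higher and 0 lower, and 9 genes of the wider list were higher and 0 lower.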
